A study of Mus musculus with 12 samples.

Results

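The genes described are 32 transcripts of the acinar cell, the cell of the exocrine pancreas that makes digestive enzymes, read in bulk RNA sequencing of isolated mouse islets. The list named 33 enzymes, enzyme cofactors and inhibitors, zymogen granule proteins and transcription factors, of which all with a row in the count files were kept. Spink3 had no row. The 32 were taken from 24421 gene rows in all. The study asked how loss of Il22ra1 in β cells changes the islet transcriptome, and it compared 6 libraries of Il22ra1βKO mice (BKO, mice whose β cells lack interleukin-22 receptor subunit alpha 1) with 6 libraries of Ins2Cre control mice (Cre), which carry a Cre recombinase driven by the insulin 2 promoter. All mice had been fed a high-fat diet for 6 weeks. The labels give no age, sex or strain, and leave unstated if a library stands for an animal or for a pool, so a p-value here reflects only how these libraries spread. Gene reads per library ranged from 10356093 to 12397139. Ins1 and Ins2 together held 7.73% to 11.9% of them (11.1% in Cre-2 and 10.4% in Cre-6), so the labelled tissue showed its defining transcripts. The labels place the knockout in β cells, not in acinar cells.

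Acinar cells surround the islets, and islets are freed from them by digestion and picking. The cells package inactive proenzymes and active enzymes into zymogen granules and release them into the ducts, where they reach the gut. The factors Ptf1a and Rbpjl bind DNA together as the PTF1 complex and drive the enzyme genes, while Bhlha15 (Mist1) sets up the secretory machinery of acinar and other secretory cells. In a bulk sample, fewer acinar cells and less acinar RNA per cell cannot be told apart.

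Acinar reads were present in every library and differed 23.0-fold between the highest and the lowest. The BKO libraries held 0.411 ± 0.193% of gene reads (SD, n = 6) in the 32 genes and the Cre libraries 0.278 ± 0.289% (SD, n = 6). The lowest, median and highest shares were 0.187%, 0.443% and 0.678% in BKO and 0.0365%, 0.163% and 0.841% in Cre. Both extremes were Cre libraries. Cre-2 held the highest share, with an exact (Clopper-Pearson) 95% interval of 0.835% to 0.846%. Cre-6 held the lowest, with an interval of 0.0355% to 0.0376%. These intervals cover counting error only and are far narrower than the spread between libraries. Of the Cre libraries, 4 lay below the lowest BKO library, and all 6 BKO libraries lay above the Cre median, but the groups overlapped because of Cre-1 and Cre-2. Without Cre-2 the Cre mean was 0.166 ± 0.0969% (SD, n = 5). The difference between the genotype means, 0.133 percentage points, was smaller than the SD within either genotype. It depended on single libraries, being 0.246 percentage points without Cre-2, 0.0848 without Cre-6 and 0.0799 without BKO-5. The value without Cre-2 was larger than the SD of BKO (0.193) and that of the 5 remaining Cre libraries (0.0969). It was smaller than the SD of all 6 Cre libraries (0.289). No p is given for this sum over chosen genes.

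**Figure D1:**
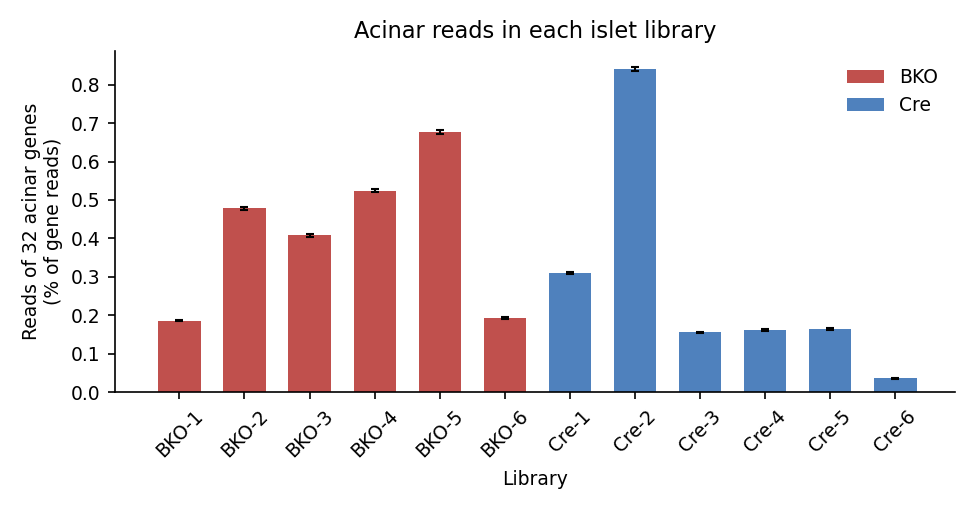
Share of gene reads, in percent, that fell on the 32 acinar genes in each of the 12 islet libraries. Bars are single libraries coloured by genotype and whiskers are exact 95% intervals for counting error. Cre-2 is highest at 0.841% and Cre-6 lowest at 0.0365%, and 4 Cre libraries lie below every BKO library.

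Summed marker levels of other cell types differed much less between the 2 extreme libraries. The summed islet hormone level was 156900 CPM (a gene's reads scaled to a common TMM-normalised library size) in Cre-2 and 150500 CPM in Cre-6. The 15 duct markers summed to 3524 and 3305 CPM, the 10 endothelial markers to 520.0 and 538 CPM, and the 12 stellate and mesenchymal markers to 198.9 and 198.7 CPM. A sum rests mostly on its highest members, in the duct list Spp1 (1182 and 1310 CPM) and Krt7 (676 and 556 CPM). Single markers could differ more: the duct keratin Krt19 was at 14.99 CPM in Cre-2 and 2.24 CPM in Cre-6. Between genotypes, all 10 endothelial markers had a positive fold change (median log2 0.46), with summed levels of 579 to 825 CPM in BKO and 454 to 652 CPM in Cre. Of 13 tested duct markers, 9 had one, with summed levels of 3408 to 4604 and 3305 to 3994 CPM, and 11 of 12 stellate and mesenchymal markers had one, but 1 of 9 tested macrophage markers. None of these genes passed the adjusted test of edgeR, and 0% of all 13583 genes did. At an unadjusted p under 0.05 (edgeR), 10 endothelial, 7 stellate and mesenchymal, 6 duct and 1 macrophage markers were higher, where 8.7% of all genes were. Of the macrophage markers, 3 were lower, where 4.66% of all genes were. The part of these markers in the acinar levels was not tested. No marker of these lists was at 0 in all libraries. Reads set aside for low alignment quality made up 16.7% to 27.3% of all reads in the files, with 17.5% in Cre-2, 22.2% in Cre-6 and the highest value in Cre-1.

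Per length, proteases led the acinar transcripts. Mean levels over the 12 libraries ran from 884 CPM per kb of exon for chymotrypsinogen B (Ctrb1), through 398 for trypsinogen Prss2, 163 for Cela2a, 157 for Cela1, 155.5 for the granule protein Sycn and 126 for colipase (Clps), to 0.0378 for Ptf1a. In GENCODE M21 (GRCm38, which is mm10), Ctrb1 spans chr8:111686519-111691010 (minus strand) and Prss2 spans chr6:41521787-41525079 (plus strand). Neighbours in this order often differed by less than their spread. Cela2a and Cela1, for example, were 201 and 192 CPM per kb in BKO and 125 and 122 in Cre. At the lower end stood 6 members that did not pass the filter on low counts: Ctrc, Cela3a, Amy2a5, Prss1, Ptf1a and Rbpjl. The other 26 were tested.

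**Figure D2:**
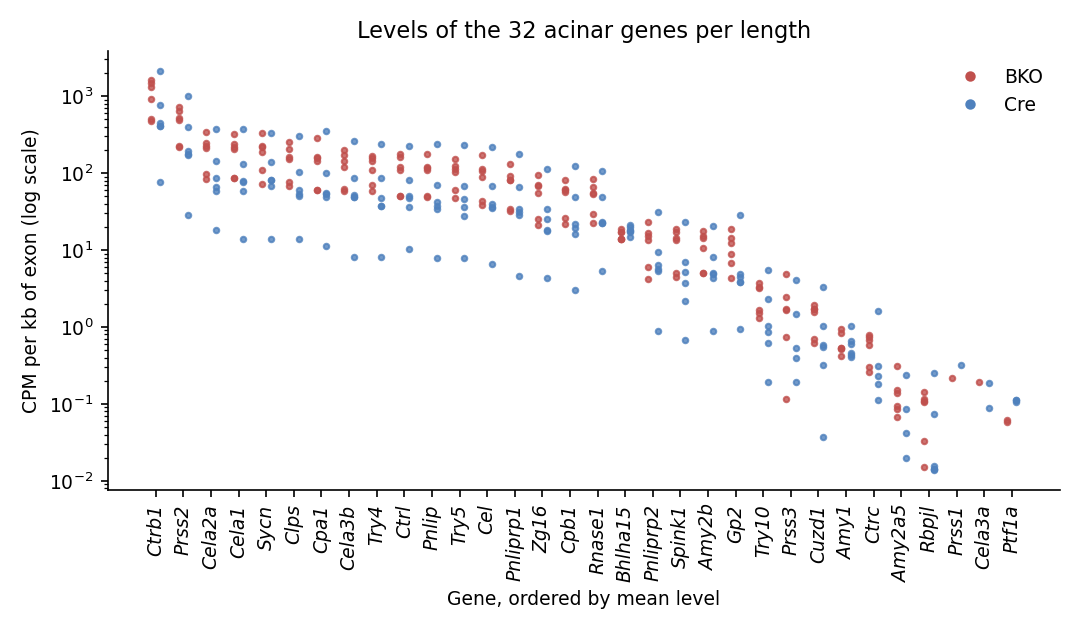
Level of each of the 32 acinar genes in CPM per kb of exon, on a log axis, with 1 point per library coloured by genotype and values of 0 left out. Ctrb1 leads with a mean of 884 and Ptf1a ends the order with 0.0378, and the lowest point of most enzymes is the single library Cre-6.

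Several low members have near-identical copies. Of all 100-base windows in the annotated transcripts of Amy2a5, the pancreatic amylase, 44.3% also occurred in a transcript of another gene, chiefly Amy2a2, Amy2a3 and Amy2a4, which were at 0 in every library. Amy2a5 itself held 0 to 13 reads a library. Prss3 shared 44.95% of its windows, mainly with Gm10334 and Gm5771, Try4 30.2% with Try5 and Try10, and Prss1 21.8%. Ctrc shared 13.8% with Cela2a, whose annotated gene it overlaps on the same strand. Counts of these genes are therefore uncertain, and the low amylase counts cannot be read as low amylase expression. By contrast, Ctrb1, Prss2, Cela1, Cpa1, Pnlip and Clps shared no window with another gene.

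The promoters of all members with an entry were searched for the letters that PTF1, a known regulator of acinar enzyme genes, recognises. RefSeq promoters (GRCm38.p6, 250 bases before to 50 after the start) were matched for 26 of the 32 genes. An E-box CANNTG with at most 30 bases between it and TTTCCC (either strand, sites not overlapping) stood in 7 of the 26, or 26.9%, against 7.42% of all 27025 genes in the table. The 7 were Cpa1, Ctrb1, Cela1, Cela2a, Cela3a, Prss1 and Cel, of which Cela3a and Prss1 held at most 3 reads in any library. The 26 also include Amy1 and Bhlha15, which did not follow the other tested members, and the untested Ptf1a, Rbpjl and Amy2a5. Absence of the pair does not set Bhlha15 apart. Members that moved together also lacked it, among them Prss2, Ctrl, Pnlip, Cela3b, Cpb1, Sycn, Try4 and Rnase1. CACCTG on either strand stood in 57.7% against 22.6%, and TATAAA on the gene's strand in 42.3% against 9.77%. Contrasts were smaller for the other letters searched: CAGCTG (26.9% against 18.3%), TTTCCC alone (38.5% against 27.9%) and TGACCTT (11.5% against 5.38%). The motifs and the distance were chosen with these data known. Any spacing up to that distance was counted, and a match is a description of letters, not a bound site. Below are 4 of the 7 promoters, those of well-covered enzymes from different families, with the paired letters in capitals (TTTCCC on the opposite strand reads GGGAAA), and that of Bhlha15, a member that did not follow the enzymes and has no such pair. They are Cela1 at chr15:100687871-100688170 (minus strand), Ctrb1 at chr8:111690961-111691260 (minus strand), Cpa1 at chr6:30638968-30639267 (plus strand), Cel at chr2:28563354-28563653 (minus strand) and Bhlha15 at chr5:144190036-144190335 (plus strand), each printed 5′ to 3′ on its gene's strand.
Cela1: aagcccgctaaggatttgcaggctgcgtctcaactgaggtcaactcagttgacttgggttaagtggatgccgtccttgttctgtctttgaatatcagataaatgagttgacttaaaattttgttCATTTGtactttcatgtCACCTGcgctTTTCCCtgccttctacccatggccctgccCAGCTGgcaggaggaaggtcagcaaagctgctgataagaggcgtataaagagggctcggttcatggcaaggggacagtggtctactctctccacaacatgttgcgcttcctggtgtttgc
Ctrb1: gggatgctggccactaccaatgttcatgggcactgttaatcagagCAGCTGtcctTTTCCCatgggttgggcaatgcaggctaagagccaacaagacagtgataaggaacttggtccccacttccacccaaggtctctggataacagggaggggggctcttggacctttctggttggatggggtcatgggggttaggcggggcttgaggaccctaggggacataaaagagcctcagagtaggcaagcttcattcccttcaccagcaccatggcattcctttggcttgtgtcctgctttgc
Cpa1: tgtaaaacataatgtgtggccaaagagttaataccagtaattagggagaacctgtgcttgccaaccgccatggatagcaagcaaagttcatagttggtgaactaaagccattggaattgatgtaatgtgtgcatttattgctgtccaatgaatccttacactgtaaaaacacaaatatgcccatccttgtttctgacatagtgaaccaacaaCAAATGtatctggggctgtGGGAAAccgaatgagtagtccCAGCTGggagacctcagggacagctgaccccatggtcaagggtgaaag
Cel: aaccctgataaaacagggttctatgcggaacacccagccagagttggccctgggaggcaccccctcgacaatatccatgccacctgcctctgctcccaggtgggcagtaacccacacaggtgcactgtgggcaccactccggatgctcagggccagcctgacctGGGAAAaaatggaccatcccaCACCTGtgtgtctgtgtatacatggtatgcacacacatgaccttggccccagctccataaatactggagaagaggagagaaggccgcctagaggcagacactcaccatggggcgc
Bhlha15: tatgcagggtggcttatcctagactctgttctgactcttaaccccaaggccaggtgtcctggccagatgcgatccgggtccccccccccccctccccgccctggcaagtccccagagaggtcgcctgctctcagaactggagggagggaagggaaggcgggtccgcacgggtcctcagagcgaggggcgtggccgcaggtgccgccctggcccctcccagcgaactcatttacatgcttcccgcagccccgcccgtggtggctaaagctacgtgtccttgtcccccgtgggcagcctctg
Counting from the start at 0, the E-boxes of Cela1 began at -126, -109 and -70 and its TTTCCC at -99. The pair of Ctrb1 lay farther out, with the E-box at -205 and the TTTCCC at -195. In Cpa1 the TTTCCC began at -19 between E-boxes at -38 and 2. In Cel the E-box began at -65 and the TTTCCC at -86.

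No acinar gene passed the test between genotypes. With edgeR's quasi-likelihood test on all 13583 genes, 0 of the 26 tested members had an adjusted p under 0.05, and 0% of all genes did. DESeq2 called 1.64% of all genes and also 0 of the 26. Of the 26, 25 had a positive log2 fold change (BKO over Cre), against 52.8% of all genes, and the median was 0.53 against 0.0078 for all genes. These 25 are not independent observations, because the enzymes rose and fell together from library to library. At an unadjusted p under 0.05, 0 members were higher, where 8.7% of all genes were, and 1 was lower, where 4.66% were. In 0 of the 26 did the 6 libraries of each genotype fail to overlap, as they did in 0.508% of all genes. Leaving out Cre-2 moved the median to 1.34, and 20 of the 26 were then higher at an unadjusted p under 0.05, against 6.91% of all genes, with 0 past the adjusted test. Leaving out Cre-6 or BKO-5 instead lowered the median to 0.29 and 0.35, with 0 members higher in either case. Without both Cre-2 and Cre-6 the median was 1.07 and 18 were higher, against 5.6% of all genes.

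**Figure D3:**
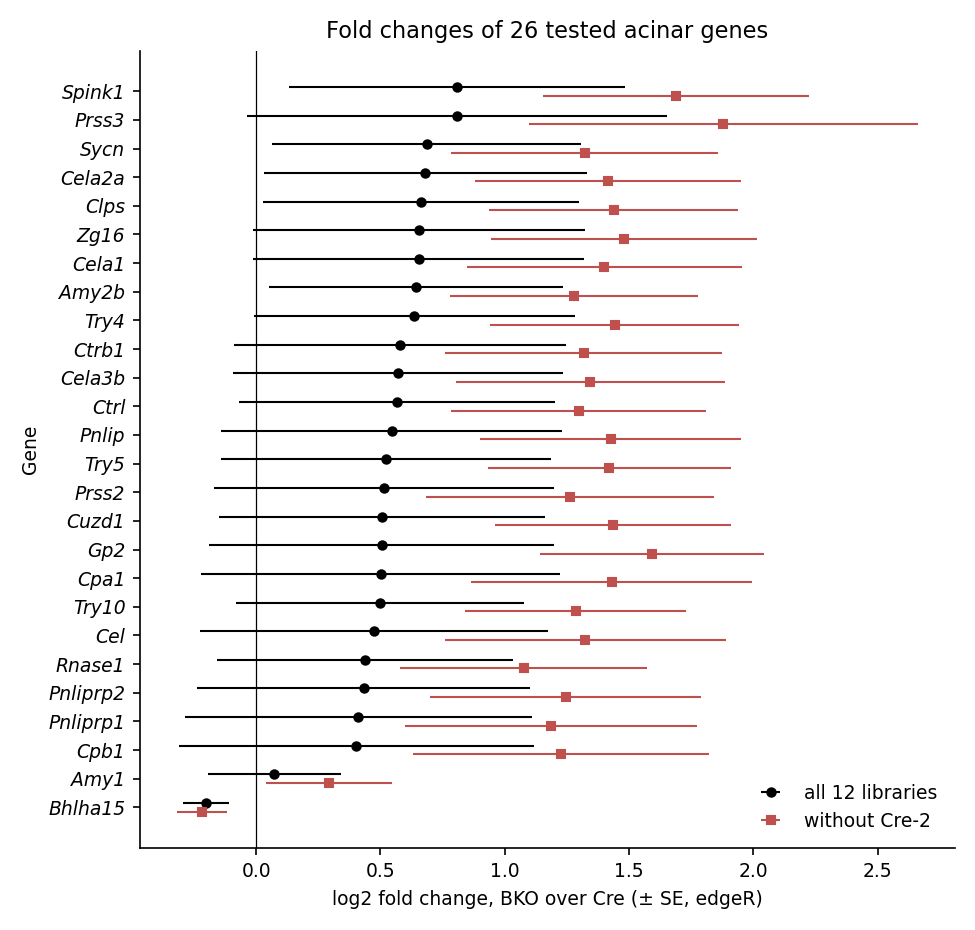
Log2 fold change of BKO over Cre with its standard error for the 26 tested acinar genes, from edgeR's fit to all 12 libraries (circles) and to the 11 without Cre-2 (squares). Without Cre-2 the median moves from 0.53 to 1.34, whereas Bhlha15 stays below 0 at -0.20 and -0.22.

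Of the chymotrypsinogens, Ctrb1 had the highest level per length of all members, while Ctrl lay below Prss2 and the tested elastases. Ctrb1, an endopeptidase precursor, was at 415, 986 and 1429 CPM (lowest, median and highest) in BKO and at 66.8, 376 and 1882 CPM in Cre. Its log2 fold change was 0.58 ± 0.67 (SE; edgeR adjusted p = 0.789). The BKO median lay above 5 of the Cre libraries, and Cre-2 lay above all others. Ctrl, a chymotrypsin-like protease, was at 58.5, 133 and 202 CPM in BKO and 12.01, 56.9 and 261 CPM in Cre. Ctrc, whose enzyme can degrade trypsinogen, held 0 to 27 reads a library and was not tested.

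The elastases cut elastin and other proteins after small residues. Cela1 was at 197, 488 and 745 CPM in BKO and at 32.5, 182 and 854 CPM in Cre, with a log2 fold change of 0.65 ± 0.67 (edgeR adjusted p = 0.749). Cela2a was at 143, 374 and 589 CPM in BKO and 31.1, 131 and 649 CPM in Cre. Cela3b had a log2 fold change of 0.57 ± 0.67. The groups overlapped in all 3. Cela3a, next to Cela3b on chromosome 4, held at most 2 reads in any library.

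Trypsinogens activate the other proenzymes once cleaved in the gut. The tested ones were all lowest in Cre-6, and all but Prss3 were highest in Cre-2. Prss2 was at 177, 413 and 583 CPM in BKO and 23.4, 151 and 812.5 CPM in Cre (log2 fold change 0.51 ± 0.69, edgeR adjusted p = 0.828). Try4 was at 47.1, 103 and 132 CPM in BKO and 6.46, 34.2 and 192 CPM in Cre. Try5, Prss3 and Try10 were tested as well, with log2 fold changes of 0.52 ± 0.66, 0.81 ± 0.84 and 0.50 ± 0.58. Prss3 was the only tested enzyme with its highest level outside Cre-2, in BKO-5 at 4.07 CPM. Prss1 held 2 reads over all BKO and 3 over all Cre libraries.

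The trypsin inhibitor Spink1, which guards acinar cells against trypsin that becomes active too early, had a log2 fold change of 0.81 ± 0.68 (edgeR adjusted p = 0.680). It was at 3.29, 10.2 and 13.5 CPM in BKO and 0.497, 3.26 and 16.7 CPM in Cre. Its groups overlapped, although all 6 BKO libraries lay above the Cre median. The procarboxypeptidases trim single residues from peptides. Cpa1 was at 106, 266 and 501 CPM in BKO and 19.8, 95.7 and 611.5 CPM in Cre (0.50 ± 0.72), and Cpb1 was at 71.9, 191 and 268.5 CPM in BKO and 10.02, 67.7 and 406 CPM in Cre. Cpb1 had the lowest fold change of the tested enzymes other than Amy1, 0.40 ± 0.71 (edgeR adjusted p = 0.876).

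Of the fat-digesting genes, all 5 were tested and all 5 had a positive fold change, between 0.41 and 0.66. Clps, the cofactor that anchors lipase to fat droplets, was at 41.4, 96.8 and 156.5 CPM in BKO and 8.53, 34.8 and 185 CPM in Cre (0.66 ± 0.64, edgeR adjusted p = 0.730). Pnlip, the main triglyceride lipase, was at 107, 249 and 388.5 CPM in BKO and 17.4, 87.3 and 517 CPM in Cre. Cel, the lipase that needs bile salts, had a log2 fold change of 0.48 ± 0.70, and the lipase relatives Pnliprp1 and Pnliprp2 had 0.41 ± 0.70 and 0.43 ± 0.67. Of the 5, Clps alone had a fold change larger than its standard error.

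Amylases, the starch-cutting enzymes, were split. Amy2b, on chromosome 3 from 113147656 to 113156727, tracked the proteases, at 7.85, 19.6 and 27.9 CPM in BKO and 1.41, 7.79 and 32.03 CPM in Cre (0.64 ± 0.59, edgeR adjusted p = 0.714). Amy1, the salivary-type amylase, did not track them. It was at 1.47, 1.83 and 3.27 CPM in BKO and 1.41, 1.82 and 3.58 CPM in Cre, with a log2 fold change of 0.073 ± 0.27 (edgeR adjusted p = 0.95). Its highest library, Cre-2, was 2.53-fold above its lowest, and in Cre-6, with the fewest acinar reads, it held 25 reads against 42 in Cre-2. Amy1 overlaps Rnpc3 on the same strand and shares 30.8% of its windows with that gene's transcripts, so its reads cannot be assigned with certainty.

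Zymogen granule proteins and the secreted ribonuclease behaved as the enzymes did. Sycn, a granule membrane-associated protein, was at 40.2, 114 and 185.5 CPM in BKO and 7.70, 45.1 and 185.6 CPM in Cre (0.69 ± 0.62, edgeR adjusted p = 0.708). It overlaps Samd4b on the opposite strand. Zg16, a granule lectin, was at 26.5, 77.7 and 120.4 CPM in BKO and 5.38, 27.6 and 143 CPM in Cre. Rnase1 was at 22.5, 53.8 and 82.9 CPM in BKO and 5.30, 22.6 and 106 CPM in Cre (0.44 ± 0.60). Gp2 (0.50 ± 0.69), a glycoprotein of the granule membrane, and Cuzd1 (0.51 ± 0.65) also had positive fold changes without passing.

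Of the transcription factors, Ptf1a and Rbpjl held few reads and Bhlha15 stood apart from the tested enzymes. Ptf1a held 0 to 2 reads a library, 2 over all BKO and 6 over all Cre libraries, and Rbpjl held 1 to 17, with 33 and 26. The highest Rbpjl count, 17, was in Cre-2. At 3 reads or fewer, the floor used here, a difference in Ptf1a was not detectable at this depth. Bhlha15, on chromosome 5 from 144190286 to 144194441, was at 47.9, 54.4 and 64.6 CPM in BKO and 52.1, 62.9 and 72.9 CPM in Cre. It was the only tested member with a negative fold change, -0.20 ± 0.092, and did not pass (edgeR adjusted p = 0.357, unadjusted p = 0.0439). The groups overlapped, and 1 of 6 BKO libraries lay above the Cre median. Its highest library was 1.52-fold above its lowest, while 21 secretory members with more than 3 reads in every library were between 20.1-fold and 40.5-fold higher in Cre-2 than in Cre-6. The difference in Bhlha15 was -0.20 ± 0.11 with the summed acinar level as a covariate, and between -0.27 and -0.17 with any single library left out. Bhlha15 is also made in plasma cells. The 10 B and plasma cell markers summed to 24.9 to 40.5 CPM in BKO and 16.9 to 24.3 CPM in Cre. Of them, 4 were at or under 3 reads in every library. Only 3 were tested, all 3 with a positive fold change and 0 past the adjusted test of edgeR. Most of the sum came from Sdc1 (mean 15.8 CPM in BKO and 9.76 CPM in Cre) and Prdm1 (11.0 and 8.40 CPM). The part of these markers in the Bhlha15 level was not tested.

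The secretory genes kept nearly fixed proportions while their total varied. Of the 24 tested members other than Amy1 and Bhlha15, all 24 were lowest in Cre-6, 23 were highest in Cre-2 and 21 had BKO-5 in the next place. In 19 of the 24 all 6 BKO libraries lay above the Cre median, and in the other 5 of them 5 BKO libraries did. For the 21 well-covered ones, the share of all acinar reads taken by a gene varied between libraries by 1.251-fold (Clps) to 2.48-fold (Spink1), with a median of 1.51-fold. Ctrb1 took 18.1% to 25.03% of the acinar reads, Cela1 8.69% to 11.5% and Prss2 6.36% to 10.7%. Bhlha15 took 0.721% in Cre-2 and 18.8% in Cre-6, which lowers the shares of the other genes in Cre-6. The lowest shares of Ctrb1 and Prss2 were those of Cre-6. Without Amy1 and Bhlha15 the acinar share of gene reads was 0.0295% in Cre-6 and 0.834% in Cre-2, a 28.3-fold range.

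**Figure D4:**
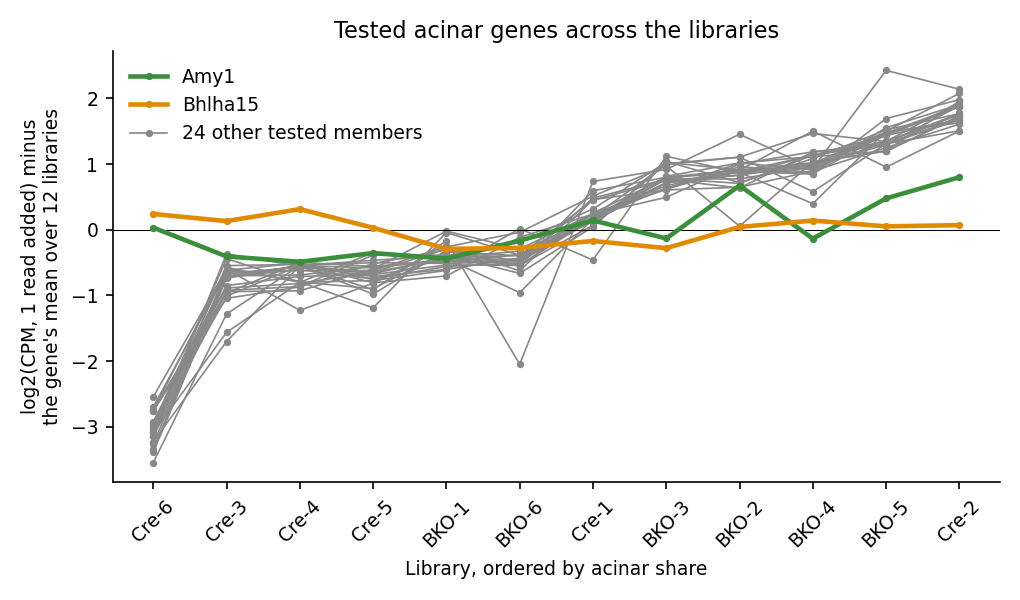
Level of the 26 tested acinar genes in each library, as log2 of CPM with 1 read added minus the gene's own mean over the 12 libraries, with libraries ordered from the lowest to the highest acinar share. The 24 grey lines climb together from Cre-6 to Cre-2, while Bhlha15 (1.52-fold from lowest to highest) and Amy1 (2.53-fold) vary far less.

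By role, chymotrypsinogens took 25.8% of the acinar reads on average in BKO and 25.1% in Cre, elastases 24.2% and 22.6%, lipases and colipase 17.2% and 16.8%, trypsinogens 14.2% and 13.2%, and procarboxypeptidases 10.2% and 9.98%. Zymogen granule proteins took 4.945% and 4.575%, ribonuclease 1.27% and 1.41%, amylases 0.512% and 0.593%, and the trypsin inhibitor 0.211% and 0.166%. Transcription factors, nearly all Bhlha15, took 1.62% in BKO and 5.595% in Cre. Ranges of the genotypes overlapped in each of these. The shares of a library depend on each other, so a larger Bhlha15 share lowers those of the enzymes. In a fit with the summed acinar level as a covariate, in which abundant members partly stand for themselves, 17 of 26 members had a positive fold change, the median was 0.024 and none passed (smallest edgeR adjusted p = 0.556).

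**Figure D5:**
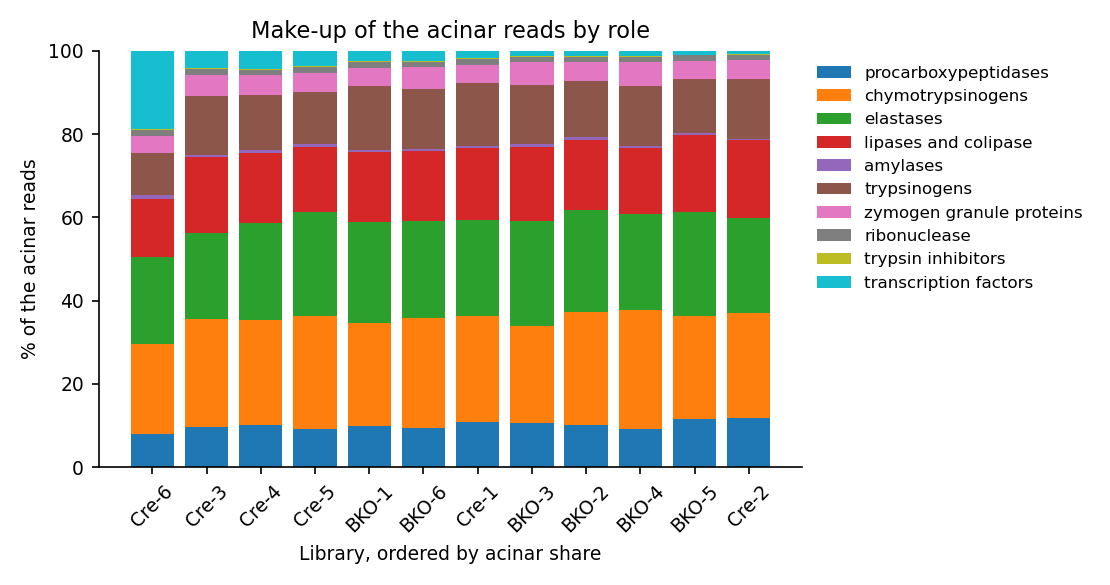
Percentage of the acinar reads taken by each role group in each library, with libraries ordered from the lowest to the highest acinar share. Chymotrypsinogens hold 21.4% to 28.6% in every library, and the transcription factor segment, nearly all Bhlha15, reaches 18.8% in Cre-6.

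A list of 23 further acinar genes, 22 of them with a row and 11 tested, gave a similar picture. Of the 11, 9 had a positive fold change and 0 passed. The trypsinogen 2210010C04Rik followed the enzymes, at 74.2, 190.3 and 286.5 CPM in BKO and 11.1, 65.1 and 305 CPM in Cre (0.73 ± 0.65, edgeR adjusted p = 0.699). Nr5a2, a nuclear receptor that acts with PTF1 on enzyme genes, was highest in BKO-6 and lowest in Cre-4, unlike the enzymes. It was at 1.74, 2.06 and 3.00 CPM in BKO and 0.618, 1.09 and 1.62 CPM in Cre. Its groups did not overlap, as those of 0.508% of all genes did not, and it was named here for its small p. Its log2 fold change was 0.99 ± 0.26, with all 6 BKO libraries above every Cre library, and it did not pass over all genes (edgeR adjusted p = 0.152). These levels rest on 7 to 32 reads a library. Gatm, an enzyme of creatine synthesis (-0.15 ± 0.099), and Tmed6, a protein of the secretory pathway (-0.10 ± 0.097), varied little between libraries.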

How the data were processed

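Total RNA of islets was extracted with TRIzol, and libraries were read as paired ends on an Illumina NovaSeq, per the labels' protocols. HISAT2 2.0.5, HTSeq and mm10 were used, per the submitters' processing notes. The HTSeq version, annotation and strand setting were not given in the sources used here. Raw read counts per gene symbol were deposited by the authors for each library, with 5 summary lines (34.7% to 45.8% of all reads in a file) that entered neither the library sizes nor any test. A series-wide table that repeats these reads as CPM was not used.

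Genotypes were compared with edgeR 4.0.16 (R 4.3.3): filterByExpr, TMM, robust glmQLFit, glmQLFTest and Benjamini-Hochberg adjustment over 13583 genes at 0.05. The test was also run on simulated counts, drawn independently for each gene, with known changes in genes picked at random. That run does not give the power for the acinar members, which move together and spread widely. CPM uses TMM-scaled library sizes. Levels per length use the union of exons in GENCODE M21. A floor of 3 reads, between 0.242 and 0.290 CPM, limits low genes. Alternatives were RLE, TMM without acinar genes, other filters, DESeq2 1.42.0, limma-voom (3.58.1), a replicate block, the summed acinar level as covariate, and each library left out. Leaving out Cre-2 and Cre-6 together, and the share without Amy1 and Bhlha15, were added after the data were seen.

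Members, roles and marker lists were chosen with earlier results of these data known. Values are given for the 2 members with the highest level per length in each role, all transcription factors, the 4 further acinar genes with the smallest p, and the 8 genes nearest in pattern outside the acinar lists, with a mean log2 CPM of at least 1 and predicted gene models left out. The others are given by fold change or range.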

Additional observations from a re-analysis of the deposited data

Results flagged for a closer look

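In 54 groups of 6 libraries (the acinar share and the level of 26 tested members, each in both genotypes), 19 had a library whose distance to its neighbour, as a share of the group's range, exceeded Dixon's 95% critical value. All 19 were Cre-2, the highest library, with gaps of 0.636 to 0.858 of the range. For normally distributed values, which was not tested here, chance alone gives about 1 group in 20. These genes also move together, so the 19 are not separate events. The acinar share of gene reads in Cre-2 was 0.841%. The proteases and inhibitor were at 611.5 CPM (Cpa1), 1882 CPM (Ctrb1), 261 CPM (Ctrl), 854 CPM (Cela1), 649 CPM (Cela2a), 435 CPM (Cela3b), 3.32 CPM (Prss3), 192 CPM (Try4), 209 CPM (Try5) and 16.7 CPM (Spink1) in that library. The fat-digesting genes were at 517 CPM (Pnlip), 390.3 CPM (Pnliprp1), 48.5 CPM (Pnliprp2), 459 CPM (Cel) and 185 CPM (Clps), and the granule proteins at 7.41 CPM (Cuzd1), 143 CPM (Zg16) and 56.2 CPM (Gp2). The widest gap was that of Gp2. No BKO library stood apart in this way, and neither did Cre-6. But the rule used CPM and percent values without logs, where a library near 0 can hardly be flagged. On a log2 scale, centred on each gene's mean, the median of the tested members other than Bhlha15 was -3.04 in Cre-6. It was -0.71 in Cre-3, the next lowest Cre library, 0.20 in Cre-1 and 1.77 in Cre-2. The rule was not run on that scale.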

How the results depend on the processing

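No acinar member passed the adjusted test under any alternative run (lowest adjusted p 0.133, Bhlha15 without BKO-4). Over all genes, edgeR called 0, DESeq2 called 223 and edgeR with the replicate number as a block 364, while single libraries left out gave 0 to 262 (262 without BKO-4, 110 without Cre-5, 6 without Cre-1 and 5 without BKO-3). The labels do not say that the numbers pair libraries. Deviations of same-numbered libraries correlated between -0.0679 and 0.26, and 4 of 6 correlated best with their own number, so the block is given here only; the members' median was 0.99 with it. Members higher at an unadjusted p under 0.05 numbered 0 to 20 with a library left out (20 without Cre-2) and 18 without Cre-2 and Cre-6. The members' median stayed positive throughout, from 0.024 with the covariate and 0.29 without Cre-6 to 1.34 without Cre-2, and was 0.97 with limma-voom. Of 542 alternative values of single members 530 kept their direction. With the covariate Cpa1 (-0.065), Cpb1 (-0.11), Pnliprp1 (-0.17), Pnliprp2 (-0.19), Amy1 (-0.15), Prss2 (-0.032), Cel (-0.10) and Rnase1 (-0.11) turned negative, and the cause was not tested. Amy1 ranged from -0.098 to 0.29 with a library left out, negative without BKO-2 (-0.098), BKO-5 (-0.029), Cre-3 (-0.018) and Cre-4 (-0.021).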

Other observations

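Outside the acinar lists, 8 genes were named for the likeness of their levels to the summed acinar level over the 12 libraries, among genes with a mean log2 CPM of at least 1 and leaving out predicted gene models. Genes that this choice leaves out lay between some of them. Likeness was the root mean square difference between centred log2 CPM values, which is 1.18 for a gene that does not vary and between 0.11 (Clps) and 0.69 (Prss3) for the tested members other than Amy1 and Bhlha15. Reg1, a secreted lectin of the exocrine pancreas, came nearest of the 8 at 0.28, with 4.72 CPM in Cre-6 and 207 CPM in Cre-2. Tff2, a trefoil peptide of mucous secretions, followed at 0.45, with 0.166 CPM in Cre-6 and 14.6 CPM in BKO-5. Serpinb1a, a protease inhibitor, was at 0.73, the duct keratin Krt19 at 0.78, the epithelial integrin Itgb4 at 0.80, Lilr4b at 0.82, Nupr1, a stress-induced nuclear protein, at 0.86 and Chadl at 0.87. Each of these 8 was lowest in Cre-6, which follows largely from the choice, because the summed acinar level is itself far lowest there. Krt19 was highest in BKO-2 at 40.0 CPM and at 14.99 CPM in Cre-2, so its order of libraries differed from that of the enzymes.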
